A study of Mus musculus with 8 samples.

Results

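The genes of the inflammasome and pyroptosis machinery followed here in wounded mouse corneas were the sensors Nlrp3 and Nlrc4, the adaptor Pycard, the caspase genes Casp1, Casp4 and Casp8, the gasdermin genes Gsdmd and Gsdme, and the cytokine gene Il18 with its binding protein Il18bp. They were chosen by name for their place in the pathway, with earlier results of these data known. All 10 of the 10 names listed were found among the 16091 genes of the deposited table. The corneas came from Opn5-null (Opn5-/-) mice, which lack the gene for the light-sensing opsin 5 (neuropsin), and from wild-type mice. There were 4 samples of each genotype, lettered A to D, and each was a whole cornea sample frozen 12 hours after its epithelium had been scraped off (debridement), so both genotypes carried the wound. The word Light stands in the title of each of the 8 samples, of both genotypes, without a stated meaning. Strain, age, sex and the terms of any light exposure were not used here, and the labels do not say which samples are from different mice; p-values thus reflect the spread among these samples, part of which may be technical. Since the targeted gene Opn5 was not analysed here, genotype is taken from the labels.

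An inflammasome is a protein complex that forms in the cytosol when a sensor such as NLRP3, or NLRC4 with its NAIP partners, detects damage or a microbial product. The sensor recruits the adaptor ASC, encoded by Pycard, which gathers and activates caspase-1. Caspase-1 matures IL-1β and IL-18 and cleaves gasdermin D, whose freed part opens pores in the plasma membrane and can kill the cell by pyroptosis. In the mouse, Casp4 encodes caspase-11, which binds cytosolic lipopolysaccharide and cleaves gasdermin D directly. NLRP3 and IL-1β take part in the inflammatory response of the cornea to injury and infection, and corneal epithelial cells are a known source of IL-18.

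The depth was 21111715 to 28219234 recovered reads per library, and values are normalized counts, that is reads divided by a size factor for the library. In whole tissue a larger number of cells of a type and more RNA per cell cannot be told apart. Markers of leukocytes were higher in the Opn5-null corneas: the 6 pan-leukocyte markers were all called higher (limma, adjusted p below 0.05), and their summed normalized counts were 30218 to 84310 in Opn5-null libraries and 4803 to 9350 in wild-type libraries. Of the neutrophil markers 9 of 10 were called higher (sums of 52694 to 176476 in Opn5-null and 17819 to 34081 in wild-type libraries), and of the monocyte and macrophage markers 8 of 12 (27435 to 44954 and 7295 to 9759). Over all genes tested, 18.8% were called higher and 13.5% lower. Of 10 corneal epithelial markers 1, Tkt, was called lower, which is near that share. However, 6 of the 10 had every Opn5-null library below every wild-type library, beside 18.1% of all genes. The median log2 fold change of the 10 was -0.86. The count called lower was 4 without Opn5-null D, with quantile normalization, with upper-quartile scaling and with limma-voom, and 3 with DESeq2. It was 0 with edgeR and without any 1 of the 4 wild-type libraries. The epithelial sums were 101849 to 411272 in Opn5-null libraries, with the lowest in Opn5-null D, and 496738 to 659023 in wild-type libraries. Lens markers, which mark tissue carried over from behind the cornea, were called lower for 5 of 6 (3 to 5 with a library left out), with sums of 871 to 1373 in Opn5-null libraries and 1496 to 5235 in wild-type libraries; the part of this in the values of the 10 genes was not tested. No marker of these lists was at 0 in any library, so corneal epithelial markers such as Krt12 and Krt5 were present in all 8 samples.

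Across the 10 genes, 6 were called higher in Opn5-null than in wild-type corneas by limma, at an adjusted p (Benjamini-Hochberg over all genes) below 0.05: Nlrp3, Nlrc4, Casp1, Casp4, Gsdmd and Il18bp. Over all 16085 genes tested, 18.8% were called higher and 13.5% lower. Of the 4 genes not called, Pycard was lower in each Opn5-null library than in any wild-type library, while Casp8, Gsdme and Il18 overlapped between the genotypes. The same 6 genes had every Opn5-null library above every wild-type library, an arrangement that 20.3% of all genes showed, and 18.1% showed the opposite one. The median log2 fold change of the 10 genes was 1.54, beside -0.020 over all genes tested. No member was called lower in the main limma fit or by edgeR or DESeq2, and 1, Pycard, was lower at an unadjusted p below 0.05 (limma). Pycard was called lower with upper-quartile scaling, with limma-voom and without Opn5-null D, as given below.

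**Figure D1:**
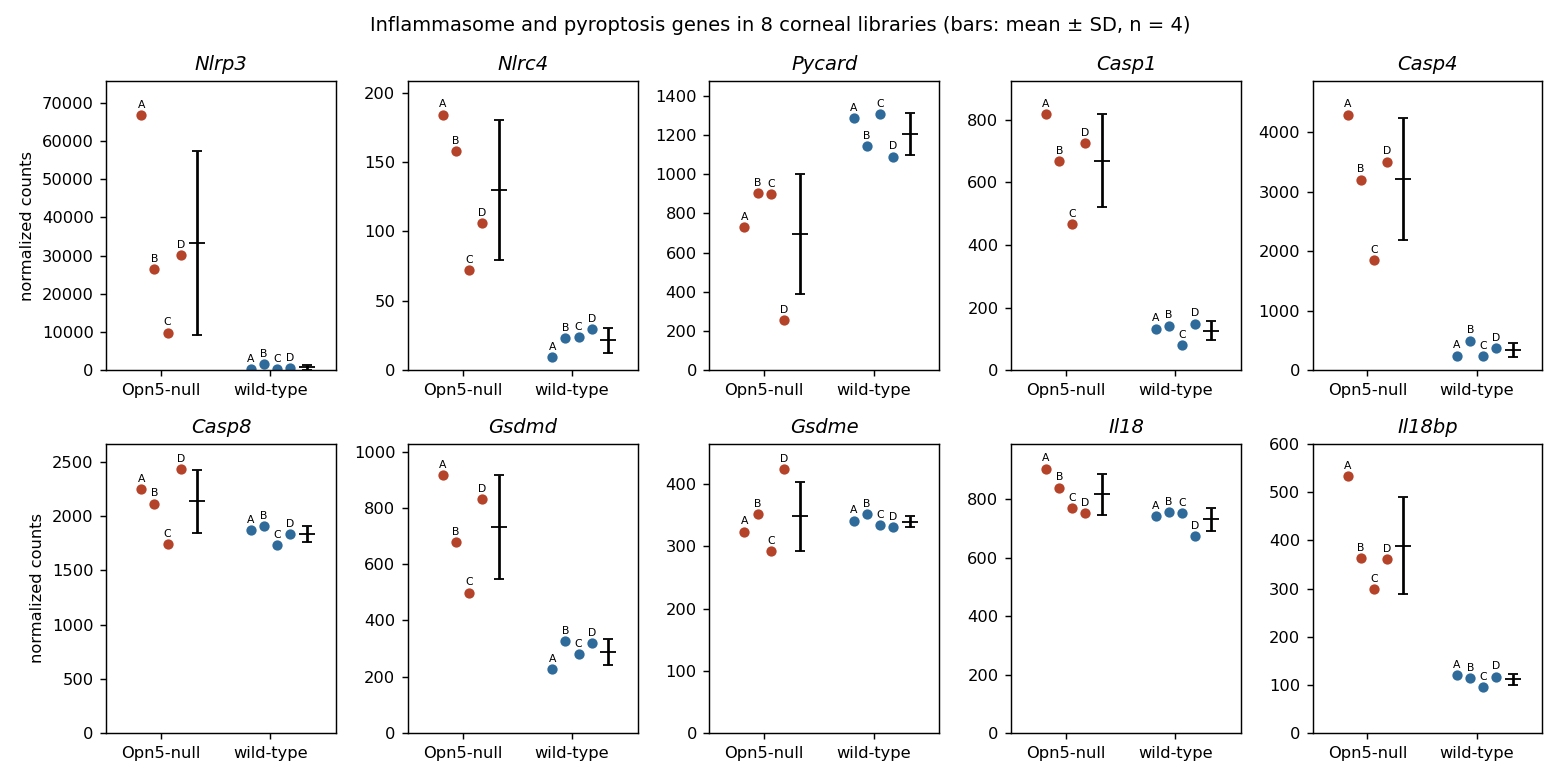
Normalized counts (vertical axes, linear, each from 0) of the 10 genes in Opn5-null and wild-type libraries A to D, with bars for the mean ± SD (n = 4). The genotypes do not overlap for Nlrp3, Nlrc4, Pycard, Casp1, Casp4, Gsdmd and Il18bp, and Pycard is the one of these that is lower in Opn5-null corneas.

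The promoters of 4 of the genes are shown. These genes are Nlrp3, the neighbours Casp4 and Casp1, and Pycard. Nlrp3 had the largest fold change of the 10. Pycard was the only one of them with every Opn5-null library below every wild-type library. RefSeq sequence (GRCm38.p6) from 250 bases before to 50 bases after each start was matched for 9 of the 10 members, all but Gsdmd, in 11 windows. Each is written 5′ to 3′ on the gene's strand, and capitals mark matches, on either strand, to a motif. Nlrp3 (chr11:59541319-59541618, plus strand) has in capitals the kappa B consensus and, nearer the start, GGANTTTCC; Casp4 (chr9:5308599-5308898, plus strand) has the kappa B consensus; Casp1 (chr9:5298267-5298566, plus strand) has no match; Pycard (chr7:127993818-127994117, minus strand) has the PU.1 motif GAGGAAGT.
Nlrp3: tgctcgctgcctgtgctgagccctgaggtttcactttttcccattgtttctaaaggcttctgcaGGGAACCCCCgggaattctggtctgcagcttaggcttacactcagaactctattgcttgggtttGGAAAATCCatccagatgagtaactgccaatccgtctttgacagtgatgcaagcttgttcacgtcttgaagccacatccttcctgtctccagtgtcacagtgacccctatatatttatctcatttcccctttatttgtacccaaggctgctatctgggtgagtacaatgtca
Casp4: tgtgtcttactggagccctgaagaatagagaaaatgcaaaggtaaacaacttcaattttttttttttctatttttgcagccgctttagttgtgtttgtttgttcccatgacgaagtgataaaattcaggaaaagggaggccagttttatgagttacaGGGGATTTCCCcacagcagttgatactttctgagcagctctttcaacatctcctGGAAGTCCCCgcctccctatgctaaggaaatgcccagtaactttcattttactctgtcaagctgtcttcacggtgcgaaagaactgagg
Casp1: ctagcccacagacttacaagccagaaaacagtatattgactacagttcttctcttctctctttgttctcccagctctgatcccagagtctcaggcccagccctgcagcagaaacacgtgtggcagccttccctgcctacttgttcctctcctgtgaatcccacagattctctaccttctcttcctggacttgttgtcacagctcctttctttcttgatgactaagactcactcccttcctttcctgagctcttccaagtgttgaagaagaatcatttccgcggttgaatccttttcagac
Pycard: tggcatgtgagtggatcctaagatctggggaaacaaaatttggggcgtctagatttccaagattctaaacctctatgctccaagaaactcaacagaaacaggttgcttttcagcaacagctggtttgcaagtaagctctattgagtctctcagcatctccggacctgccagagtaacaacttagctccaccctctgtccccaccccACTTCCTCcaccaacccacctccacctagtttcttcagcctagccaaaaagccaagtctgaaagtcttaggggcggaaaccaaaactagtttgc

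The motifs were searched on both strands: the interferon-stimulated response element GAAANNGAA, the gamma-activated site TTCNNNGAA, the kappa B motif GGANTTTCC, the 10-letter kappa B consensus, which overlaps in part with it, and GAGGAAGT for PU.1, a factor of myeloid cells. The consensus was added with these sequences in view. It matched 3 of the 11 windows, both overlapping windows of Casp4 and 1 of the 2 of Nlrp3, and 8.46% of 32851 mouse promoters of that length. In the Casp4 window shown the first match begins 93 bases before the start, overlaps with the next, and another begins 39 bases before it. In the Nlrp3 window the consensus match begins 186 bases and the GGANTTTCC match 122 bases before the start, and GGANTTTCC was found in 1.25% of promoters. The PU.1 letters stood in 1 of the 11 windows, that of Pycard, 44 bases before the start, and in 3.2% of promoters. The interferon-stimulated response element and the gamma-activated site matched 0 of the 11 windows and 8.56% and 8.3% of promoters. A match describes letters and is not a shown binding site.

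Nlrp3, on chromosome 11, encodes the sensor that responds to many signs of membrane and ion disturbance. Its normalized counts were 66718, 26421, 9829 and 30196 in Opn5-null A to D, against 307, 1516, 376 and 646 in wild-type A to D. Every Opn5-null library lay above every wild-type library, with Opn5-null A highest and wild-type B the highest of its group. The mean was 33291 ± 23977 (SD) over the 4 Opn5-null libraries and 711 ± 556 over the 4 wild-type ones, a 46.8-fold difference. Nlrp3 rose by a log2 fold change of 5.53 ± 0.65 (SE; limma, adjusted p = 0.000590). The ratio was 31.1 without Opn5-null A and 75.2 without wild-type B.

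Nlrc4, on chromosome 17, encodes the sensor that NAIP proteins switch on when they bind flagellin or parts of bacterial secretion systems. It had 184, 158, 72.0 and 106 normalized counts in Opn5-null A to D and 9.20, 23.0, 23.9 and 29.9 in wild-type A to D. The genotypes did not overlap, and wild-type A was the lowest library. The means of 130 ± 50.5 (SD) over the 4 Opn5-null libraries and 21.5 ± 8.75 over the 4 wild-type ones differed 6.05-fold, and Nlrc4 rose by 2.56 ± 0.41 on the log2 scale (SE; limma, adjusted p = 0.00230). These values rest on 481 reads over the Opn5-null libraries and 91 over the wild-type libraries.

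Pycard, on chromosome 7, encodes the adaptor ASC, which links NLRP3 to caspase-1. It had 729, 904, 897 and 254 normalized counts in Opn5-null A to D, against 1285, 1141, 1306 and 1089 in wild-type A to D. All 4 Opn5-null libraries lay below the wild-type ones, and Opn5-null D lay far below the other Opn5-null samples. The mean of 696 ± 306 (SD) over the 4 Opn5-null libraries stood beside 1205 ± 107 over the 4 wild-type ones. The log2 fold change of -0.95 ± 0.38 missed the threshold (limma, adjusted p = 0.0851). Without Opn5-null D the change was smaller, -0.52, and passed (limma, adjusted p = 0.00628), and it also passed with upper-quartile scaling (-1.06, adjusted p = 0.0482) and with limma-voom with quality weights (-0.50, adjusted p = 0.0401). The corneal epithelial markers, as a mean log2 difference from the wild-type mean, stood at -0.90, -0.38, -0.40 and -2.24 in Opn5-null A to D and -0.20 to 0.24 in wild-type libraries, so that Opn5-null D was lowest for these markers and for Pycard; their part in the Pycard values was not tested. Exons of Pycard overlap those of Gm45205 on the opposite strand, whose means were 18.7 for Opn5-null and 17.6 for wild-type corneas.

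Casp1 and Casp4 lie next to each other on chromosome 9, with starts 10332 bases apart, and encode the inflammatory caspases. Casp1 had 819, 667, 467 and 725 normalized counts in Opn5-null A to D, against 133, 142, 81.3 and 149 in wild-type A to D. Its lowest Opn5-null library, C, was above the highest wild-type library, D. The mean was 670 ± 149 (SD) over the 4 Opn5-null libraries and 126 ± 30.7 over the 4 wild-type ones, 5.30-fold, and Casp1 rose by 2.41 ± 0.23 on the log2 scale (SE; limma, adjusted p = 0.000258).

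Casp4 had 4301, 3205, 1850 and 3508 normalized counts in Opn5-null A to D, against 247, 497, 239 and 368 in wild-type A to D. The order of the Opn5-null libraries, A, D, B and C from high to low, was the same as for Casp1. It was also that of the pan-leukocyte markers. The mean of 3216 ± 1021 (SD) over the 4 Opn5-null libraries was 9.52-fold that of 338 ± 121 over the 4 wild-type ones, and Casp4 rose by 3.25 ± 0.31 on the log2 scale (SE; limma, adjusted p = 0.000255). Within each library, the counts of Casp4 over those of Casp1 were 5.25, 4.80, 3.96 and 4.84 in Opn5-null A to D and 1.86, 3.49, 2.94 and 2.48 in wild-type A to D. This ratio was higher in Opn5-null corneas by 0.84 on the log2 scale, with no overlap (exact two-sided permutation test, p = 0.0286, the smallest that 70 arrangements allow; adjusted over 8 ratios 0.0327).

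Casp8, on chromosome 1, encodes the initiator caspase of death-receptor apoptosis, which also restrains necroptosis. It had 2246, 2117, 1743 and 2436 normalized counts in Opn5-null A to D, against 1872, 1905, 1734 and 1837 in wild-type A to D. The genotypes overlapped, since Opn5-null C lay within the wild-type range while the other Opn5-null libraries lay above it. The mean was 2136 ± 293 (SD) over the 4 Opn5-null libraries and 1837 ± 74.1 over the 4 wild-type ones, and the log2 fold change of 0.21 ± 0.10 was not called (limma, adjusted p = 0.157). Without Opn5-null C it was 0.30 and passed (limma, adjusted p = 0.0187), and with limma-voom with quality weights it was 0.20 and passed (adjusted p = 0.0243).

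Gsdmd, on chromosome 15, encodes gasdermin D, the pore-forming target of caspase-1 and caspase-11. It had 917, 679, 499 and 831 normalized counts in Opn5-null A to D, against 226, 325, 281 and 320 in wild-type A to D. No Opn5-null library reached down to the wild-type range. The mean was 732 ± 184 (SD) over the 4 Opn5-null libraries and 288 ± 46.0 over the 4 wild-type ones, 2.54-fold, and Gsdmd rose by 1.32 ± 0.20 on the log2 scale (SE; limma, adjusted p = 0.00188).

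Gsdme, on chromosome 6, encodes gasdermin E, a pore-forming relative of gasdermin D. Its normalized counts were 324, 352, 293 and 424 in Opn5-null A to D, against 342, 352, 335 and 331 in wild-type A to D. The wild-type values lay inside the wider Opn5-null range. The mean was 348 ± 56.0 (SD) over the 4 Opn5-null libraries and 340 ± 9.32 over the 4 wild-type ones, and the log2 fold change was 0.022 ± 0.12 (SE; limma, adjusted p = 0.902); its sign was negative with quantile normalization (-0.064), with upper-quartile scaling (-0.092) and without Opn5-null D (-0.077). The ratio of Gsdmd to Gsdme counts within a library was 2.83, 1.93, 1.70 and 1.96 in Opn5-null A to D and 0.662, 0.924, 0.840 and 0.969 in wild-type A to D. Gsdmd counts exceeded Gsdme counts in each Opn5-null library and in no wild-type library. The log2 difference was 1.3 (exact two-sided permutation test, p = 0.0286, adjusted over 8 ratios 0.0327). The ranges of the single genes already fixed the lack of overlap in this ratio, so the p-value adds nothing to them. Counts are not per length, so the crossing of 1 is not a comparison of transcript numbers.

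Il18, on chromosome 9, encodes the pro-form of IL-18, which caspase-1 matures. It had 905, 840, 771 and 753 normalized counts in Opn5-null A to D, against 741, 756, 753 and 674 in wild-type A to D. The genotypes overlapped, with Opn5-null D within the wild-type range. The mean was 817 ± 69.7 (SD) over the 4 Opn5-null libraries and 731 ± 38.9 over the 4 wild-type ones, and the log2 fold change of 0.16 ± 0.085 was not called (limma, adjusted p = 0.181), though it passed with limma-voom with quality weights (0.21, adjusted p = 0.0212).

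Il18bp, on chromosome 7, encodes a secreted protein that binds mature IL-18 and keeps it from its receptor. It had 534, 363, 299 and 360 normalized counts in Opn5-null A to D, against 120, 114, 94.6 and 117 in wild-type A to D. Every Opn5-null library lay above the whole wild-type range. The mean was 389 ± 101 (SD) over the 4 Opn5-null libraries and 111 ± 11.3 over the 4 wild-type ones, 3.50-fold, and Il18bp rose by 1.77 ± 0.18 on the log2 scale (SE; limma, adjusted p = 0.000306). The ratio of Il18bp to Il18 counts was 0.590, 0.432, 0.388 and 0.479 in Opn5-null A to D and 0.161, 0.151, 0.126 and 0.173 in wild-type A to D. It was higher in Opn5-null corneas by 1.61 on the log2 scale with no overlap (exact two-sided permutation test, p = 0.0286, adjusted over 8 ratios 0.0327). The ranges of Il18bp and Il18 alone already fixed this lack of overlap, so the p-value adds nothing to them. Exons of Il18bp overlap those of Numa1 on the opposite strand, whose means were 2680 for Opn5-null and 2757 for wild-type corneas (limma, adjusted p = 0.793), and the strand setting of the counting is not given in the sources used here.

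**Figure D2:**
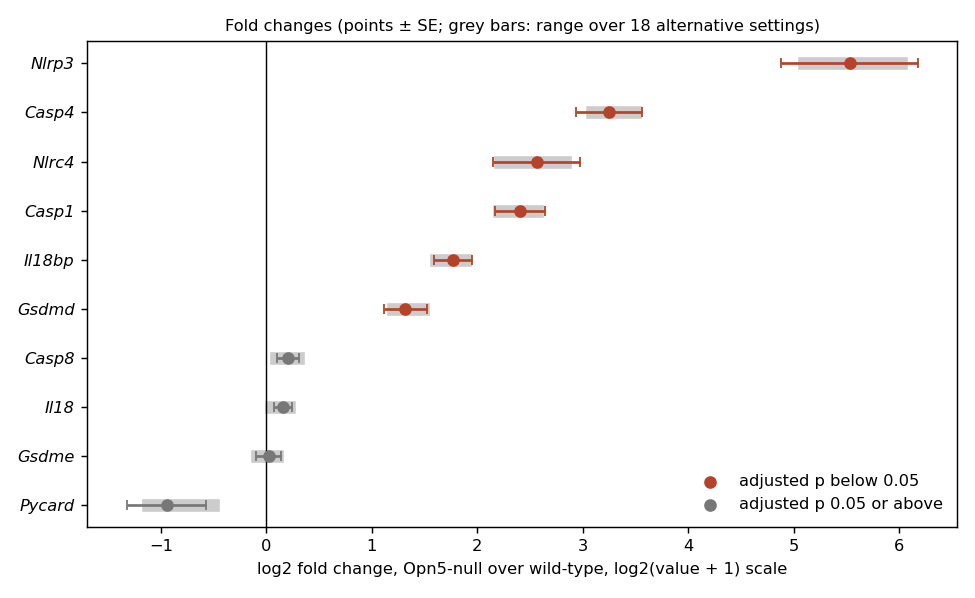
Log2 fold changes, Opn5-null over wild-type on the log2(value + 1) scale (horizontal axis), of the 10 genes. Points with bars are the estimate ± SE, red where the adjusted p was below 0.05, and grey bars span the alternative settings. The 6 called genes run from 1.32 (Gsdmd) to 5.53 (Nlrp3), and Gsdme is the gene whose sign turned in 3 settings.

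Levels of different genes can be set beside each other only per length, here as normalized counts per kilobase of exon. In Opn5-null corneas Nlrp3 stood first at 8206 ± 5910, followed by Casp4 at 867 ± 275, Il18 at 793 ± 67.7 and Casp8 at 738 ± 101 (mean ± SD, n = 4). Casp1 at 447 ± 99.3, Gsdmd at 308 ± 77.3, Pycard at 183 ± 80.4 and Il18bp at 129 ± 33.5 came next. Gsdme at 27.3 ± 4.40 and Nlrc4 at 27.0 ± 10.5 were lowest. By their mean ± SD, only the steps below Nlrp3, below Casp8 and below Il18bp were apart, and the other neighbours overlapped.

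In wild-type corneas the same scale put Il18 first at 709 ± 37.7, then Casp8 at 635 ± 25.6, Pycard at 317 ± 28.0 and Nlrp3 at 175 ± 137 (mean ± SD, n = 4). Gsdmd at 121 ± 19.3, Casp4 at 91.1 ± 32.7, Casp1 at 84.4 ± 20.5 and Il18bp at 36.8 ± 3.74 followed, with Gsdme at 26.7 ± 0.731 and Nlrc4 at 4.47 ± 1.82 last. From Pycard down to Casp1, neighbours overlapped in their mean ± SD, and the other steps were apart. Thus Nlrp3 and Pycard stood at ranks 1 and 7 in Opn5-null corneas and at ranks 4 and 3 in wild-type corneas. The ranks also depend on the length used. The principal transcript is much shorter than all exons for Casp4 (1435 and 3710 bases), Il18bp (1594 and 3026) and Gsdme (2502 and 12742). It is not for Pycard (3800 by both) or Nlrp3 (4021 and 4057). With the principal transcript, Pycard stood at rank 8 in Opn5-null corneas, behind Il18bp. In wild-type corneas Nlrp3 then stood at rank 5, with Casp4 at rank 4 and Gsdme at rank 7.

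Libraries within a genotype also differed in step. Opn5-null A held the highest Opn5-null value for 7 of the 10 genes and Opn5-null C the lowest for 8, and wild-type B held the highest wild-type value for 6. The pan-leukocyte markers, as a mean log2 difference from the wild-type mean, were 3.34, 2.83, 2.02 and 3.14 in Opn5-null A to D and -0.47 to 0.43 in wild-type libraries, so Opn5-null A was highest and C lowest for them as well. The neutrophil markers stood at 2.74, 2.10, 1.09 and 2.47 in Opn5-null A to D, in the same order. The marker lists rose unequally, with median log2 fold changes of 2.96 (pan-leukocyte), 2.20 (neutrophil) and 1.58 (monocyte and macrophage). The part of leukocyte number in the values of the 10 genes was not tested. The ratios to 1 leukocyte gene that follow are not levels per leukocyte.

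**Figure D3:**
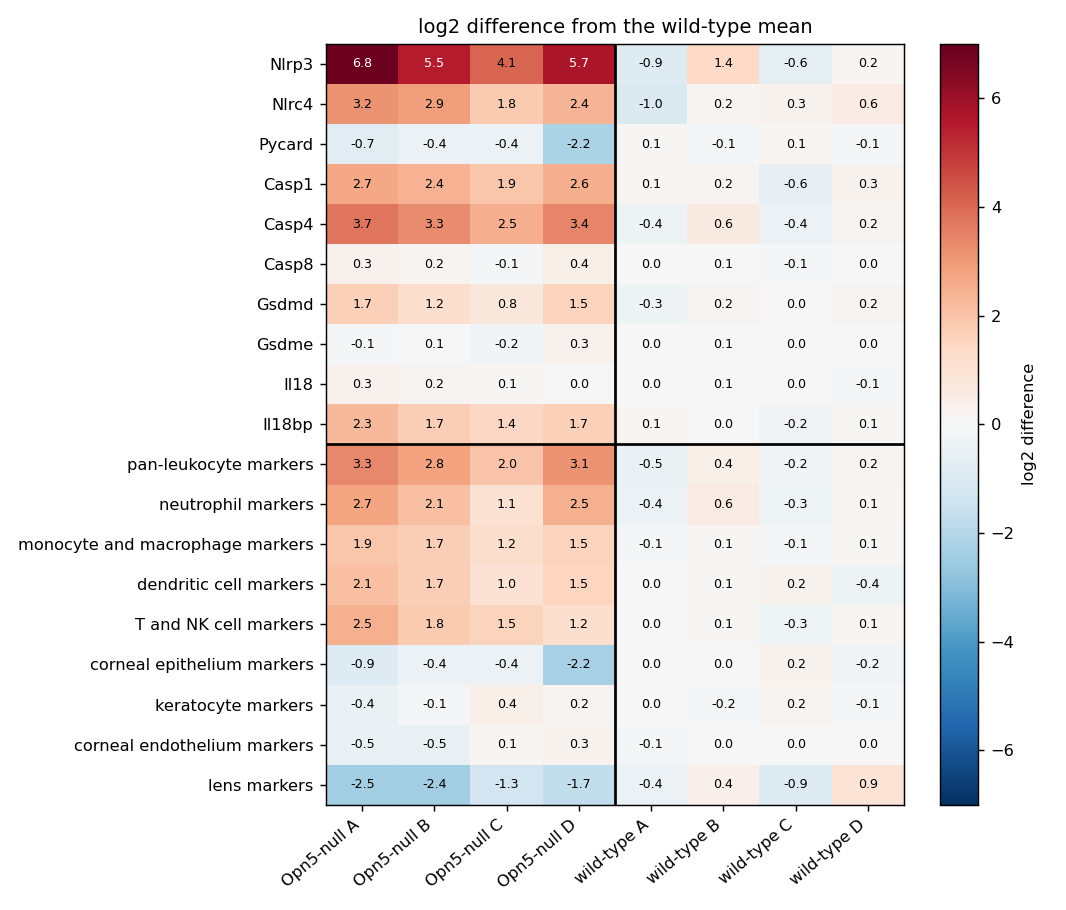
Log2 difference of each library from the wild-type mean (colour and printed value) for the 10 genes and, as means over each list, for cell type markers, with Opn5-null libraries left of the line and wild-type libraries right of it. The pan-leukocyte row runs from 2.02 to 3.34 in Opn5-null libraries, and Opn5-null D has the lowest value for Pycard and for the corneal epithelial markers.

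Ptprc, which encodes CD45 and is carried by nearly all leukocytes, was used as a yardstick within each library. It had 14201, 10296, 5322 and 11037 normalized counts in Opn5-null A to D, against 858, 1684, 1158 and 1492 in wild-type A to D, a 7.87-fold difference of means (log2 fold change 2.94 ± 0.32, limma, adjusted p = 0.000421). Nlrp3 exceeded this yardstick: its counts over those of Ptprc were 4.70, 2.57, 1.85 and 2.74 in Opn5-null A to D and 0.358, 0.900, 0.325 and 0.433 in wild-type A to D. The log2 difference was 2.60, with no overlap (exact two-sided permutation test, p = 0.0286, adjusted over 8 ratios 0.0327).

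Casp4 stayed closer to Ptprc, with ratios of 0.303, 0.311, 0.348 and 0.318 in Opn5-null A to D and 0.288, 0.295, 0.206 and 0.247 in wild-type A to D. The small log2 difference of 0.31 still left the genotypes without overlap (exact two-sided permutation test, p = 0.0286, adjusted 0.0327). Casp1 had ratios of 0.0576, 0.0648, 0.0877 and 0.0657 in Opn5-null A to D and 0.155, 0.0846, 0.0702 and 0.0996 in wild-type A to D. These overlapped, and the log2 difference of -0.53 did not pass (exact two-sided permutation test, p = 0.0857, adjusted 0.0857), so Casp1 was not shown to differ from Ptprc in either direction.

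Pycard relative to Ptprc was 0.0513, 0.0878, 0.169 and 0.0230 in Opn5-null A to D and 1.50, 0.678, 1.13 and 0.730 in wild-type A to D. The log2 difference was -3.88 with no overlap (exact two-sided permutation test, p = 0.0286, adjusted 0.0327). Sensor and adaptor were also set against each other: Nlrp3 over Pycard was 91.5, 29.2, 11.0 and 119 in Opn5-null A to D and 0.239, 1.33, 0.288 and 0.593 in wild-type A to D. That is a log2 difference of 6.48 (exact two-sided permutation test, p = 0.0286, adjusted 0.0327). For Pycard over Ptprc and Nlrp3 over Pycard, the lack of overlap was fixed in advance by the single genes. Pycard was lower, and Nlrp3 and Ptprc higher, in each Opn5-null library than in any wild-type library. These p-values thus add nothing to the single-gene values, and neither do those of Il18bp over Il18 and Gsdmd over Gsdme. In those pairs, too, the single-gene ranges alone keep the genotypes apart, whichever values are paired. The cells that hold Pycard RNA were not identified, so its ratio to Ptprc is not a level per leukocyte.

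**Figure D4:**
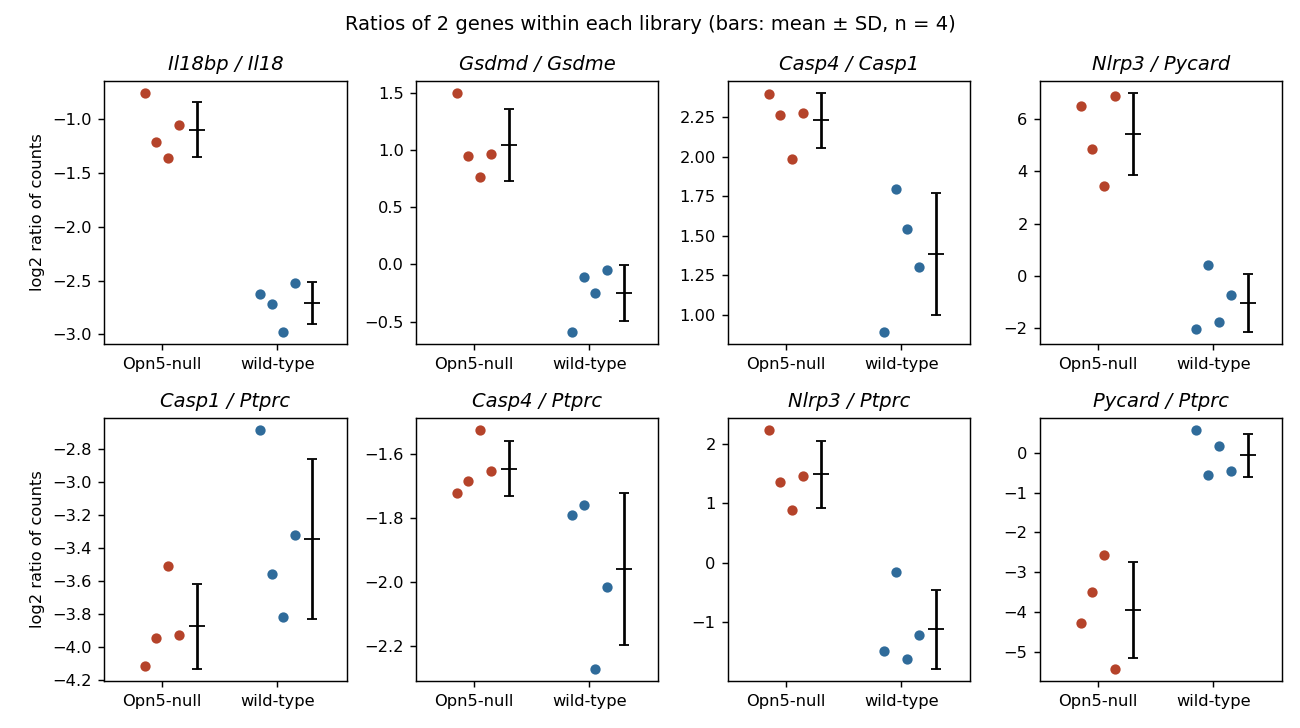
Log2 ratios of the counts of 2 genes within each library (vertical axes, log2 scale) for 8 pairs, Opn5-null left of wild-type, with bars for the mean ± SD (n = 4). The genotypes overlap for Casp1 over Ptprc and are apart for the other 7 pairs, of which Pycard over Ptprc is the one that is lower in Opn5-null corneas.

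Around these 10 genes, 70 other genes of the pathway were listed by role, with earlier results of these data known, and 59 of them were measured and tested. Of these, 43 rose, 3 fell and 13 were not called, with a median log2 fold change of 1.46 beside -0.020 over all genes. The shares over all genes tested, 18.8% called higher and 13.5% lower, stand beside these counts and those of each list below. All of the following ratios are of mean normalized counts, and adjusted p-values are those of limma over all genes tested. Called genes named in each list are those with the lowest p.

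Of 10 other inflammasome sensors, 8 rose and 1 fell. Mefv, which encodes pyrin, an inflammasome sensor of myeloid cells, averaged 7048 for Opn5-null and 604 for wild-type corneas, 11.7-fold (log2 3.52 ± 0.37, adjusted p = 0.000384). The flagellin and secretion-system receptors Naip2 and Naip5 were 4.80-fold and 4.46-fold higher, and the DNA sensor Aim2 was 3.41-fold higher. Naip1, a NAIP that detects the secretion needle, was called lower and was named after its values were seen. It had 241, 203, 242 and 47.0 normalized counts in Opn5-null A to D, against 682, 561, 592 and 474 in wild-type A to D (log2 fold change -1.89 ± 0.49, adjusted p = 0.0203), and its call was lost without wild-type A (0.0589) and without wild-type C (0.0529). Opn5-null D was the lowest library for Naip1, as it was for Pycard. Nlrp10 was not called (-1.06, adjusted p = 0.125) but passed without Opn5-null C (-1.45, adjusted p = 0.0286) and with limma-voom (-1.69, adjusted p = 0.0134). The Naip genes are close copies, so reads may be split between them and these values are uncertain.

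Of 11 genes for priming and activation, 8 rose. Cd14, the lipopolysaccharide co-receptor, was 21.8-fold higher, or 38.1-fold without wild-type B, and Tlr2, a receptor of bacterial lipopeptides, 7.80-fold higher. Irf8, a transcription factor of myeloid cells that drives Naip genes, was 4.33-fold higher, and the receptor adaptor Myd88 2.67-fold higher. Nek7, a kinase that binds NLRP3, had a log2 fold change of 0.28 (adjusted p = 0.201), and Brcc3, which removes ubiquitin from NLRP3, one of -0.21 (adjusted p = 0.103). Neither of these partners of NLRP3 was called, although Brcc3 passed without Opn5-null C (-0.29, adjusted p = 0.0198) and with quantile normalization, upper-quartile scaling and limma-voom (-0.23 to -0.33, adjusted p = 0.0142 to 0.0450).

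All 8 guanylate-binding protein and immunity-related GTPase genes (with their regulator Irf1) rose, with a median log2 fold change of 2.61. These interferon-inducible proteins coat microbial membranes and help present lipopolysaccharide to caspase-11. Gm12250, which encodes Irgb10, was 30.9-fold higher, Gbp5 25.0-fold, Gbp2 7.29-fold and Gbp7 4.41-fold. Gbp5 had 1932, 2884, 1681 and 3377 normalized counts in Opn5-null A to D and 129, 107, 59.3 and 101 in wild-type A to D, with Opn5-null D highest, unlike the inflammatory caspases. The Gbp genes are close copies of each other, and their values are uncertain in the same way.

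Of 5 other genes of pore formation and cell rupture that were measured, 1 rose. Ninj1, whose product ruptures the membrane of dying cells, averaged 2702 for Opn5-null and 616 for wild-type corneas, 4.38-fold (log2 2.09 ± 0.20, adjusted p = 0.000289).

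Among 10 IL-1 and IL-18 ligand and receptor genes, 8 rose. Il1b, the main cytokine substrate of caspase-1, had 138958, 63432, 25975 and 72956 normalized counts in Opn5-null A to D, against 1611, 7670, 2635 and 3948 in wild-type A to D, 19.0-fold. Its library order within each genotype was that of Nlrp3, A, D, B and C from high to low in Opn5-null corneas and B, D, C and A in wild-type corneas. Ptprc and the summed pan-leukocyte markers had this same order in both genotypes, so it is not particular to Il1b and Nlrp3. Il1rn, which encodes the receptor antagonist, was 15.8-fold higher, Il1a 14.2-fold (8.67-fold without Opn5-null A) and the signalling receptor Il1r1 2.33-fold. Il18r1, which encodes the IL-18-binding receptor chain, was not called (-0.32, adjusted p = 0.404) and its sign turned with limma-voom (0.085), and the inhibitory receptor gene Sigirr was not called (-0.71, adjusted p = 0.112).

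Of 6 genes listed under restraint of inflammasomes, 4 rose. The name of the list does not establish that each of them, such as Pstpip1 or Casp12, acts as a brake. Tnfaip3, which encodes the ubiquitin-editing protein A20, was 13.1-fold higher, Pstpip1, a pyrin-binding protein gene, 4.95-fold and Casp12 1.50-fold. Pydc3, a pyrin-only gene of the interferon-inducible cluster, had 72.4, 147, 155 and 552 normalized counts in Opn5-null A to D, against 4.09, 0, 0 and 0.934 in wild-type A to D. It was 184-fold higher, but the wild-type libraries held 5 reads in all, and the ratio was 99.3 without Opn5-null D and 744 without wild-type A; its reads may also be shared with near copies. Serpinb1a, an inhibitor of neutrophil proteases and caspase activation, was not called (-0.18, adjusted p = 0.697), and its sign turned with limma-voom (0.23) and without Opn5-null D (0.18). The mitochondrial Nlrx1 was not called (-0.60, adjusted p = 0.0785), though it passed without Opn5-null B or D (adjusted p = 0.0282 and 0.0473) and with quantile normalization and upper-quartile scaling (adjusted p = 0.0369 and 0.0322).

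Of 9 partners of caspase-8 in apoptosis and necroptosis, 6 rose and 2 fell. Zbp1, a sensor of Z-form nucleic acid that engages RIPK3, had 3014, 3096, 2690 and 3969 normalized counts in Opn5-null A to D and 220, 241, 147 and 197 in wild-type A to D (log2 fold change 3.99 ± 0.17, adjusted p = 7.49e-06). Cflar, the caspase-8 regulator c-FLIP, was 2.96-fold higher, Bid, a caspase-8 substrate, 2.05-fold and Mlkl, the executioner of necroptosis, 1.39-fold. The 2 that fell, named after their values were seen, were small: Fadd, the adaptor that recruits caspase-8, by a log2 fold change of -0.37 ± 0.10 (adjusted p = 0.0211), and Casp6 by -0.33 ± 0.10 (adjusted p = 0.0345). Without 1 wild-type library the call of Fadd was lost for A, B and C (adjusted p = 0.0517 to 0.0660) and that of Casp6 for each of the 4 (0.0540 to 0.0900). Tradd, an adaptor of the TNF receptor, was not called (-0.42, adjusted p = 0.107), but it passed with quantile normalization (adjusted p = 0.0477) and with upper-quartile scaling (0.0376).

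**Figure D5:**
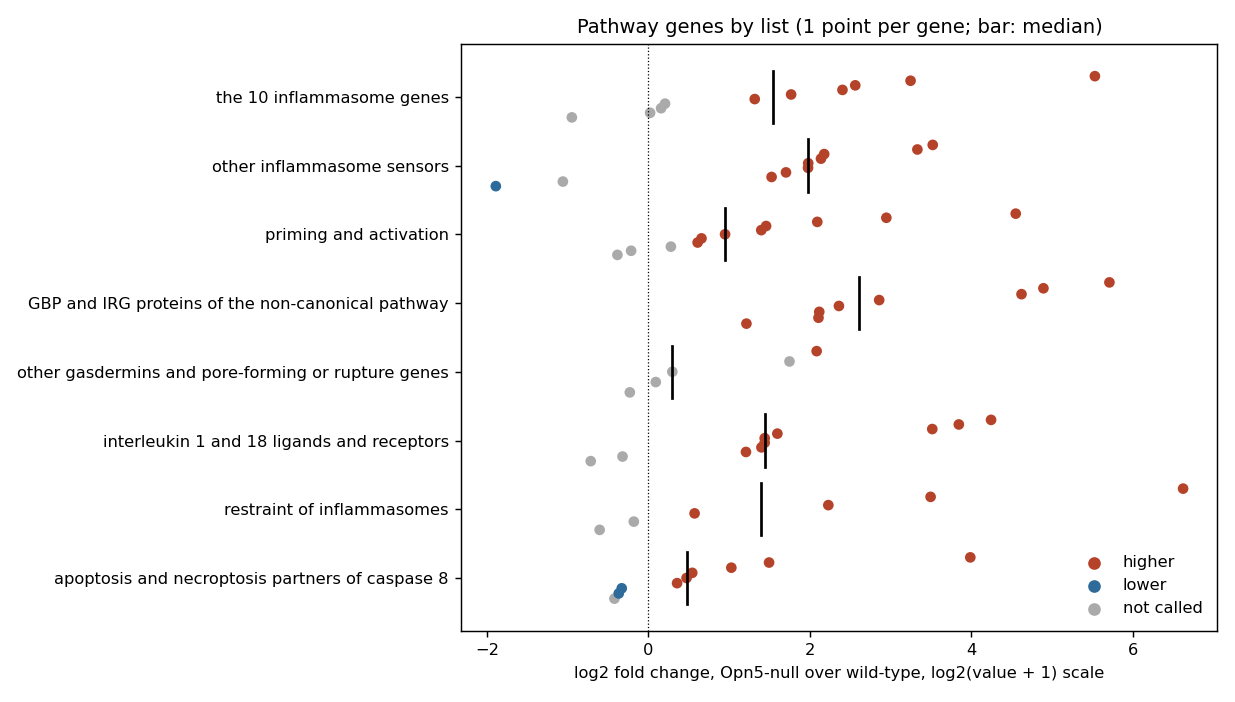
Log2 fold changes, Opn5-null over wild-type on the log2(value + 1) scale (horizontal axis), with 1 point per gene by list, red where called higher, blue where called lower and grey where not called, and a black bar at the list's median. The medians run from 0.30 for other gasdermins and rupture genes to 2.61 for the GBP and IRG genes.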

How the data were processed

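Total RNA from 8 whole corneas was depleted of ribosomal and globin RNA and made into stranded libraries, per the labels' protocols. RSEM 1.3.1 is named in the submitters' processing notes. The aligner, the build, the annotation and the strand setting: not given in the sources used here. Library columns of the deposited table hold signal values that are counts over 1 size factor per library: divided by each column's smallest nonzero value, 100% came out whole within 0.001. The authors' deposited log2 fold changes, p-values and −log10 values were not used for results.

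Genotypes were compared on log2(value + 1) with limma 3.58.1 (R 4.3.3; trend, robust variance), a scale that understates the change of low genes. Genes were kept if their value reached 1 in 4 or more libraries (16085 of 16091; all 10 members passed), and p-values were adjusted over all of them by Benjamini-Hochberg, threshold 0.05. Folds are ratios of mean normalized counts. Ratios within libraries were compared by exact permutation of 70 arrangements. Lengths and overlaps came from GENCODE M21 (GRCm38), with 16063 IDs matched, and promoters from RefSeq. Counts of all replicate pairs differed by more than sampling noise. The fit was first checked on simulated counts, with the same spread beyond sampling noise for all genes and both genotypes. That check does not cover the wider spread among the Opn5-null libraries.

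The members and lists were chosen with earlier results of these data known. Named were all members and, of each other list, up to 4 called genes with the lowest p and up to 2 uncalled genes with the highest mean. Some genes that met this rule are not reported here, though they stayed in the fit and the counts. Alternatives were quantile normalization, upper-quartile and TMM scaling, other filters, a pseudocount of 0.1, a stricter threshold, a letter block, each library left out, and edgeR 4.0.16, DESeq2 1.42.0 and limma-voom on recovered reads.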

Additional observations from a re-analysis of the deposited data

How the results depend on the processing

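The 6 genes called higher kept their call and direction in all 18 alternative settings. The 8 ratios kept their direction with a pseudocount of 0.1 and with each library left out. A letter block was not computed for the ratios. The ratios were tested again only with a pseudocount of 0.1, where each kept its side of the threshold. Of the alternative fold changes of the 10 genes, 171 kept direction and call, 6 passed where the main one did not (Pycard, Casp8 and Il18, given above) and 3 turned sign. The 3 are of Gsdme: -0.064 with quantile normalization, -0.092 with upper-quartile scaling, and a range of -0.077 to 0.10 over the fits leaving out 1 library. The number of the 10 genes called lower was 1 with upper-quartile scaling and 1 with limma-voom, and 0 to 1 with a library left out. The other pathway genes called lower, 3 as reported, were 6 with quantile normalization, 6 with upper-quartile scaling, 5 with limma-voom, 0 at an adjusted p below 0.01 and 0 to 5 with a library left out. Over all genes, 1818 were called higher and 702 lower at an adjusted p below 0.01, against 3029 and 2175 as reported. Genes called lower over all genes were 3746 with quantile normalization, 3671 with upper-quartile scaling, 3526 with limma-voom and 1079 to 2543 with a library left out, lowest without wild-type A (1079), C (1243) or D (1289). Among called genes, those higher in Opn5-null corneas made up 58.2% as reported, 40.3% with quantile normalization and 40.8% with upper-quartile scaling, where the median over all genes was -0.13 on the log2 scale in place of -0.020. The causes were not tested. With letters as a replicate block, 2545 genes were called higher and 1691 lower, 6 of the 10 genes among the higher. Deviations from the genotype mean correlated at -0.156, -0.128, 0.138 and 0.131 between same-lettered samples. Those of differently lettered samples ran from -0.284 to 0.325. The labels do not state a pairing, and these correlations cannot decide whether there was one. Among the 10 genes depth limits Nlrc4 most, with 91 reads over the wild-type libraries; some other listed genes had fewer, such as Pydc3 with 5 and Nlrp10 with 74.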
